A study of Mus musculus with 21 samples.

Results

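Cytosolic ribosomal protein genes were examined in RNA-Seq libraries of mouse spiral ganglion neurons (SGNs) at 5 ages, inner ear hair cells (HCs) and cochlear glial cells. The genes were chosen by symbol, as names of the Rpl and Rps pattern together with *Rplp0*, *Rplp1*, *Rplp2* and *Rpsa*, without ribosomal protein S6 kinases and without symbols marked as pseudogenes. The choice used no measured value and gave 93 of the 52550 genes in the table. Of these, 46 encode the standard proteins of the large subunit and 31 those of the small subunit, which together are called the 77 core genes here. Another 8 are paralogs of a core gene, 7 are retrogenes or copies, and *Rps19bp1* matches the pattern but encodes a protein that binds Rps19 and is no part of the ribosome.

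SGNs are the neurons that carry signals from the cochlea to the brain, and they were picked by hand on embryonic day E15.5 and on postnatal days P1, P8, P14 and then P30 from *ShhCre/+; Rosa26-CAG-loxp-stop-loxp-tdTomato/+* mice, in which Cre driven by *Shh* turned on the red fluorescent protein tdTomato from a single reporter allele. HCs, the sensory receptor cells, came at P12 from the cochlea and vestibule of *Atoh1-CreER+* mice that carried the same reporter allele and were given tamoxifen at P0 and P1. Glial cells came at P8 from the ganglion area of *vGlut3-iCreER/+* mice with that reporter, given tamoxifen at P2 and P3. Cre line and tamoxifen therefore differ between the cell types and cannot be told apart from cell type. Age cannot either, except where P8 SGNs are set against the P8 glia. The labels give C57BL/6 as the strain of every library and describe all cells as hand picked, whereas the study's methods describe fluorescence-activated sorting for the HCs. Each of the 7 groups had 3 replicates of pooled cells. SGN libraries held 69 to 195 cells, glial libraries 86 to 125 and HC libraries about 1200. For HCs, cells per library and collection as the methods describe it cannot be told apart from cell type. Nothing says whether replicates came from separate animals, so p-values measure the spread between these libraries only.

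Libraries held 10368240 to 37287489 counts on genes, with a median of 20384100. SGN markers (*Slc17a6*, *Slc17a7* and *Lypd1*) summed to 37.6 to 601 TPM (transcripts scaled by gene length and library) in SGN libraries, to 5.88 to 9.71 TPM in HC libraries and to 1.82 to 38.4 TPM in glial libraries, so that the lowest E15.5 library and the highest glial library overlapped. HC markers summed to 2387 to 2810 TPM in HC libraries and to at most 189.7 TPM elsewhere. Schwann cell myelin markers summed to 7354 to 10057 TPM in glial libraries, 816.8 to 1500 TPM in P8 SGN libraries and 8.46 to 235 TPM in P30 SGN libraries. The share of counts on mitochondrially encoded genes was 9.57% to 13.5% at E15.5, 17.9% to 22.1% at P30 and 9.54% to 10.6% in HCs.

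A ribosome is made of a small subunit, which reads the mRNA, and a large subunit, which joins amino acids, and each holds ribosomal RNA and 1 copy of most of its proteins. Cells make these proteins in step with ribosomal RNA and with growth, and *Myc* family transcription factors and the mTOR kinase are well-known regulators of that supply. Ribosomal protein mRNAs typically begin with a C followed by a run of pyrimidines, the 5′ terminal oligopyrimidine (TOP) tract, through which mTOR and the RNA-binding protein Larp1 control their translation. Neurons depend on ribosomes while they extend axons and later at synapses, and cochlear wiring, myelination and the onset of hearing fall within the ages sampled.

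The stretch around the annotated transcript start is shown for a few members because it holds the letters by which this mRNA class is known. RefSeq promoter sequence on GRCm38.p6 was matched by symbol for 68 of the 93 members, and the window runs from 10 bases before the annotated start to 20 bases from it, 5′ to 3′ on the gene's strand. Capitals mark the letters CTTTC, a short pyrimidine run typical of TOP tracts. Every window shown belongs to a member that passed a test between SGN ages, *Rpl15* as a rise from E15.5 to P1. The first 5 windows hold the letters and the last pair do not.
Rps26, chr10:128626487-128626516, minus strand: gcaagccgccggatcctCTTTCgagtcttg
Rpl13a, chr7:45128726-45128755, minus strand: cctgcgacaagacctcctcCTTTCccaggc
Rps27, chr3:90213629-90213658, minus strand: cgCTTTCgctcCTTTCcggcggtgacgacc
Rplp2, chr7:141447641-141447670, plus strand: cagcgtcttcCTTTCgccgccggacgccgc
Rpl15, chr14:18270967-18270996, minus strand: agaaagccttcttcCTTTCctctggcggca
Rps28, chr17:33824543-33824572, minus strand: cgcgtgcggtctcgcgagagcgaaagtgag
Rplp0, chr5:115559457-115559486, plus strand: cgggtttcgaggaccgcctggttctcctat

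CTTTC stood in this window, on the gene's strand only, in 16 of 68 members (23.5%) and in 4.43% of all 27025 genes with a promoter sequence. The ETS-type letters CCGGAAG, searched on both strands of the window from 250 bases before to 50 bases after the start, stood in 26 of 68 members (38.2%) against 9.93% of all genes. TATAAA, searched in the same way, stood in 8 members (11.8%) against 15.7% of all genes. An annotated start can lie some bases from the true one, and the absence of the letters says only that they are not in this window.

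The ribosomal protein genes were lower in older SGNs, and the difference ran across both subunits. Their summed share of all counts was 1.05%, 1.36% and 1.18% in the E15.5 libraries, 1.20% ± 0.157 (SD, n = 3). The mean was 0.978% ± 0.161 for P1, then 0.613% ± 0.0666 for P8 and 0.508% ± 0.0660 for P14. P30 was lowest, 0.449% ± 0.0306, with 0.484%, 0.437% and 0.427% in the single P30 libraries. In share of counts, all E15.5 libraries lay above all P8, P14 and P30 libraries, while E15.5 and P1 overlapped. After TMM scaling, which sets libraries to a common level over most genes, the summed level was 1.04% ± 0.174 of the scaled total at E15.5 and 0.554% ± 0.0591 at P30. Per length, the share of TPM was 0.895% ± 0.192 at E15.5, 1.12% ± 0.260 at P1 and 0.617% ± 0.219 at P8. It was 0.650% ± 0.325 at P14 and 0.418% ± 0.0937 at P30, so that P1 was the highest age on that scale. In share of TPM the E15.5 libraries overlapped those of P8 and P14 but not those of P30. Without mitochondrially encoded genes the share of counts was 1.35% ± 0.206 at E15.5 and 0.563% ± 0.0399 at P30. These are levels relative to the RNA in each library, and in pooled cells a lower level in every cell and fewer cells with a high level cannot be told apart.

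**Figure D1:**
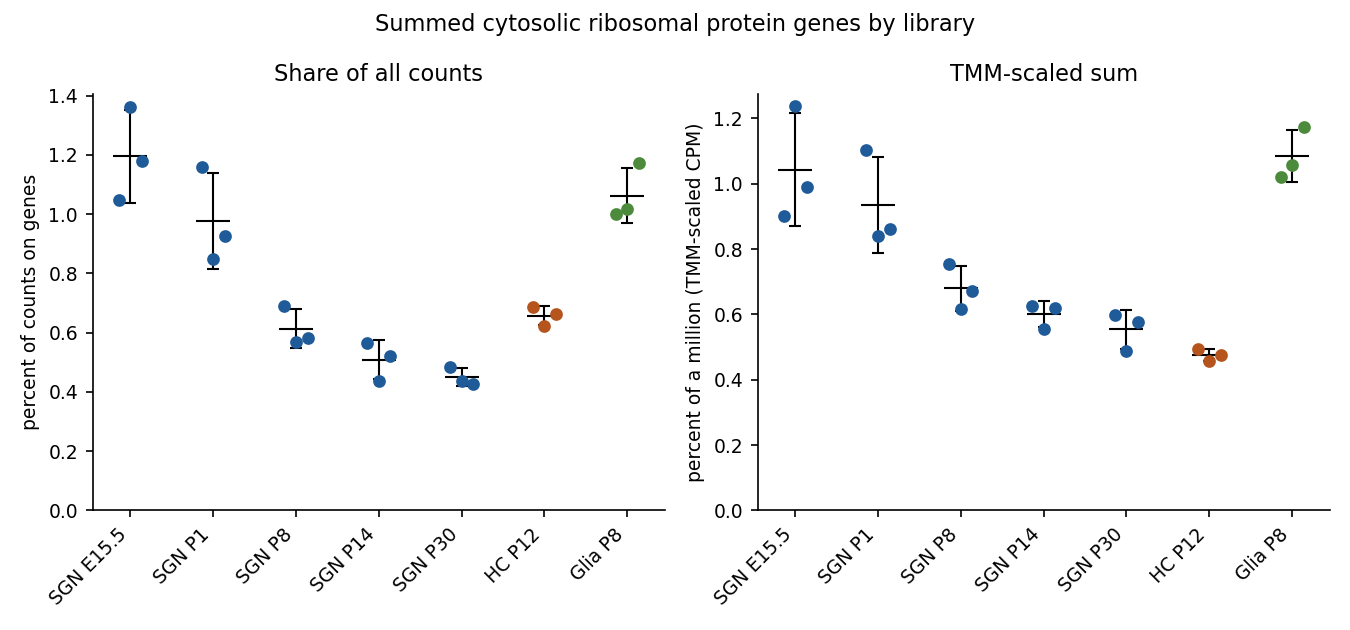
Summed level of the 93 genes in each library, as a percent of all counts (left) and as a percent of the TMM-scaled total (right). Points are libraries, black bars are the mean ± SD of 3 libraries, and blue, orange and green mark SGNs, HCs and glial cells. The HC mean lies above the P14 and P30 SGN means on the left and below them on the right.

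By level per length, *Rpl4* was the most abundant member in SGNs with a mean of 371 TPM over the 15 libraries, followed by *Rps3a1* (280.1 TPM), *Rpl36* (270.5 TPM), *Rps15* (247 TPM), *Rplp1* (233 TPM), *Rpl38* (229 TPM), *Rpl41* (191 TPM), *Rpl32* (173 TPM) and *Rpl17* (173 TPM). The 10 most abundant members held 31.6% of the summed TPM of the members. *Rpl4* ranged from 148 to 807 TPM among SGN libraries and *Rps3a1* from 102 to 512 TPM, so neighbors in this order overlapped. A mean over 100 TPM was found for 29 members, between 10 and 100 TPM for 53 and under 10 TPM for 11. The core genes under 10 TPM were *Rpl13a*, a large-subunit protein also known as a translational repressor in interferon-stimulated cells, at 7.63 TPM, and *Rpl24* at 5.91 TPM, although the finished ribosome holds its proteins in about equal numbers. A median of 24.0% of the 50-base words of a member's transcripts also occurred in other annotated genes. Most words were shared in 12 members, and the exons of 40 members overlapped another gene. Short reads from such stretches may not be placed on a single gene. The shared part was 24.0% for *Rpl13a* and 51.8% for *Rpl24*. Exons of *Rpl13a* overlap *Gm45713*, *Mir5121* and *Snord33*, and exons of *Rpl24* overlap *Gm28037*, all on the same strand. The bearing of shared and overlapping sequence on the levels of these genes was not tested.

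Of the 93 members, 88 passed the low-count filter and were tested. From E15.5 to P30, 62 of the 88 fell and none rose at an adjusted p under 0.05 (limma-voom, Benjamini-Hochberg adjustment over all 15113 genes), where 19.3% of all genes fell and 22.1% rose. At 2-fold or more, 37 of the 88 fell and none rose, where 16.2% of all genes fell and 18.4% rose. At an unadjusted p under 0.05, 71 members were lower and 1 was higher, and by edgeR and DESeq2 the adjusted counts were 68 and 71, all lower. The fitted change was negative for 87 of the 88, as for 50.2% of all genes, with a median of -0.96 on the log2 scale against -0.01 for all genes tested. With scaling by library size only, the median of all genes moved to -0.48 and 72 members fell at least 2-fold.

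In the small subunit, 29 of 31 genes fell and 22 fell at least 2-fold, with a median log2 fold change of -1.13. They included *Rps28*, *Rps26*, *Rps12*, *Rps3*, *Rps19*, *Rps7*, *Rps27a*, *Rps16*, *Rps21*, *Rps14*, *Rps2*, *Rps20*, *Rps13*, *Rps18*, *Rps29*, *Rps23*, *Rps3a1*, *Rps4x* and *Rps9*. The remaining pair did not pass: *Rps6*, the small-subunit protein that S6 kinases phosphorylate, had a log2 fold change of -0.24 ± 0.20 (SE), and *Rps10* had -0.78 ± 0.38. In the large subunit, 32 of 46 genes fell and 14 fell at least 2-fold, with a median of -0.86. Those 14 were *Rpl13a*, *Rplp0*, *Rpl29*, *Rpl30*, *Rplp2*, *Rpl12*, *Rpl39*, *Rpl41*, *Rpl37a*, *Rpl10*, *Rpl26*, *Rpl32*, *Rpl7* and *Rpl21*.

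*Rps28*, a small-subunit protein near the mRNA exit, had the lowest fitted change, -2.15 ± 0.46 (limma-voom, adjusted p = 0.0015). Its TMM-scaled CPM (counts scaled by library, not by length) were 56.7, 110.4 and 31.2 at E15.5 and 35.2, 24.8 and 30.3 at P1. They were 22.8, 11.8 and 16.3 in the P8 libraries, 13.5, 13.8 and 16.4 in those of P14, and 14.9, 13.1 and 11.5 in those of P30. The lowest E15.5 library lay above every P30 library, and the second E15.5 library stood far above the other pair. *Rps28* (chromosome 17, 33819027 to 33824562, minus strand, GRCm38 with GENCODE M21) overlaps exons of *Kank3* on the opposite strand, and reads of the 2 genes cannot be told apart without strand.

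*Rps26*, which contacts the mRNA at the exit of the small subunit, was at 132, 171 and 143 CPM at E15.5 and at 48.8, 29.7 and 36.2 CPM at P30 on the TMM scale. Its fitted change was -1.98 ± 0.29 (limma-voom, adjusted p = 6.2e-05), and the ages were far apart in every library. The gene lies on chromosome 10 from 128624534 to 128626747 on the minus strand and overlaps no other annotated exon. *Rps12* was at 52.8, 103 and 48.8 CPM at E15.5 and at 23.6, 16.6 and 16.4 CPM at P30, a fitted change of -1.79 ± 0.34.

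*Rplp0*, the base of the ribosomal stalk that recruits elongation factors, was at 136, 355 and 160.3 CPM at E15.5 and at 61.3, 48.6 and 68.1 CPM at P30, a fitted change of -1.80 ± 0.31. Its stalk partner *Rplp2* fell by 1.40 on the log2 scale, whereas *Rplp1*, the other stalk protein, did not pass the test at -0.55 ± 0.29. *Rpl13a* was at 25.4, 13.7 and 16.1 CPM at E15.5 and at 4.41, 7.89 and 3.06 CPM at P30, a fitted change of -1.91 ± 0.48, and its ages did not overlap either. At the other end of the core genes that fell stood *Rpl4* at -0.52, *Rpl5* at -0.55 and *Rpl9* at -0.59, and *Rpl5* is known for carrying 5S ribosomal RNA into the ribosome. *Rpl7a* was at -0.19 ± 0.28 and did not pass.

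**Figure D2:**
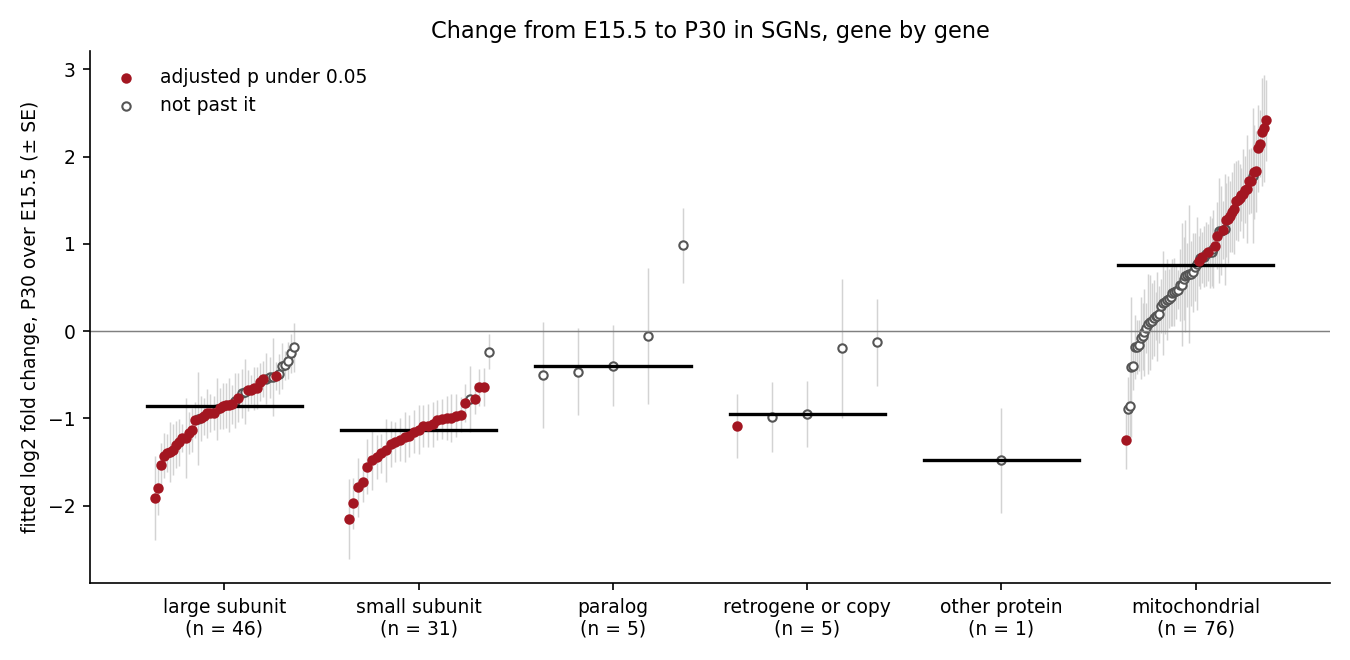
Fitted log2 fold change from E15.5 to P30 for each tested gene, by class, with mitochondrial ribosomal protein genes on the right. Gray bars are standard errors, black lines are class medians, and filled points passed an adjusted p of 0.05. The medians are -0.86 and -1.13 for the large and the small subunit and 0.75 for the mitochondrial genes.

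The small-subunit median was lower than the large-subunit median, and the same was seen library by library. The ratio of large-subunit to small-subunit counts over the core genes was 1.56 ± 0.0312 (SD, n = 3) at E15.5 and 1.87 ± 0.0556 at P30, and the libraries of these ages did not overlap. The ages between had 1.70 ± 0.0340 (P1), 1.76 ± 0.0238 (P8) and 1.77 ± 0.123 (P14). Computed on TPM, the ratio was 1.59 ± 0.0272 at E15.5 and 1.86 ± 0.0363 at P30. Split by shared sequence, the 13 core genes with under 10% of words shared had a median log2 fold change of -1.001 and 12 of them fell, the 57 genes with 10 to 50% shared had a median of -0.9997 and 47 fell, and the 7 genes with over 50% shared had a median of -0.69 and 2 fell. Core genes with and without exon overlap had medians of -0.9997 and -0.99. Members with CTTTC at the start had a median of -0.89 (15 tested, 8 fell) and those whose window lacked it -0.96 (49 tested, 36 fell). The 24 tested members with no matched window had a median of -1.05 and 18 fell.

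The largest step of the decline lay between P1 and P8. The median fitted log2 fold change of the members was -0.14 from E15.5 to P1, -0.51 from P1 to P8, -0.14 from P8 to P14 and -0.14 from P14 to P30, against 0.07, -0.01, -0.02 and -0.01 for all genes. Of the 77 core genes, 58 had their highest age mean at E15.5 and 19 at P1, and 54 had their lowest at P30. Age means were lower than at the age before in 58 core genes for P1, 75 for P8, 65 for P14 and 54 for P30, and 31 genes were lower at each of the 4 steps.

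**Figure D3:**
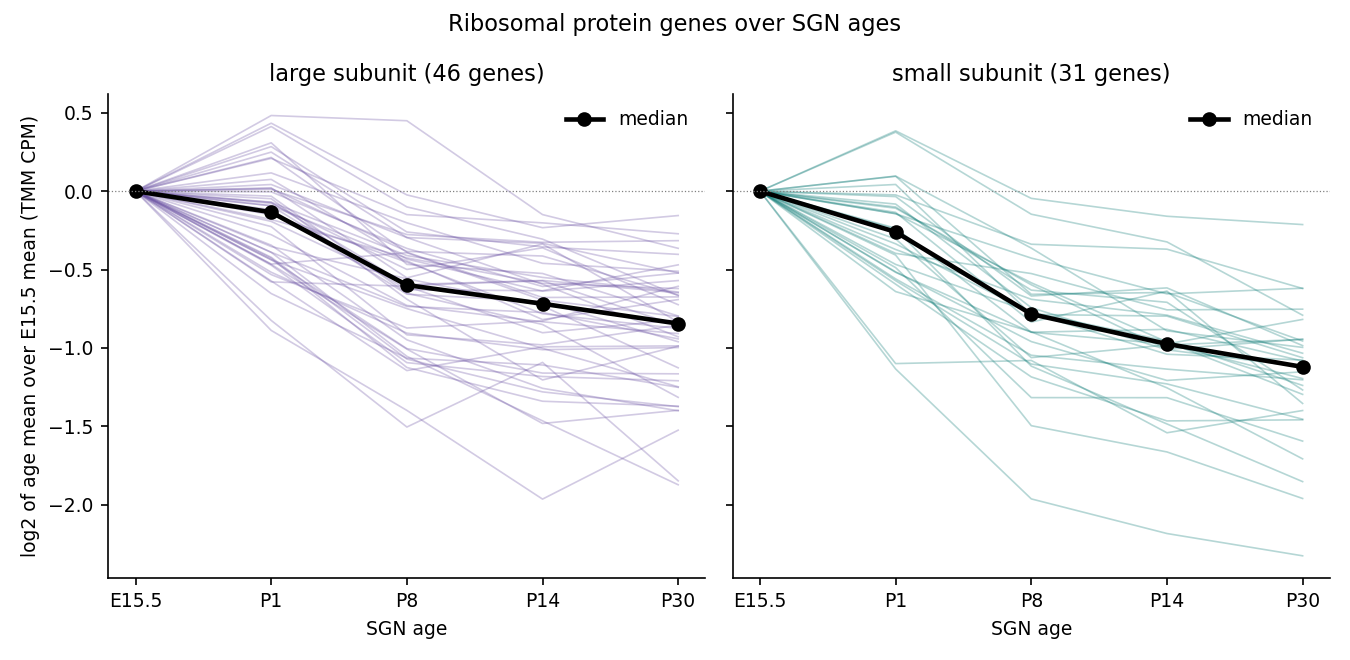
Age means of each core gene in SGNs, as log2 of the TMM-scaled CPM mean over its E15.5 mean, for the large subunit (left) and the small subunit (right). Thin lines are genes and the black line is the median over genes. The steepest part of both medians lies between P1 and P8.

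From E15.5 to P1, 1 member fell at least 2-fold, where 3.18% of all genes did, and 3 fell and 1 rose at an adjusted p under 0.05, where 4.31% and 6.79% of all genes did. *Rpl29*, a large-subunit protein, was at 175, 268 and 188 CPM at E15.5 and at 142, 116 and 83.0 CPM at P1 on the TMM scale, a fitted change of -0.88 ± 0.23 (limma-voom, adjusted p = 0.022). *Rps3*, which is also known in DNA repair, had a change of -0.65 ± 0.20, a call that was kept under 5 of 10 other settings and lost, among others, with the replicate number as a block, and that was kept in 8 of 15 fits without 1 library. The *Rpl29* call was kept under 8 of 10 settings and in 12 of 15 such fits. *Rpl15* had a change of 0.48 ± 0.15 (limma-voom, adjusted p = 0.049), with 132, 171 and 160.2 CPM at E15.5 and 211, 210.1 and 226 CPM at P1. That call for *Rpl15* was kept under 1 of 10 other settings. The 4 members past the adjusted p became 7 without E15.5 replicate 1, 1 without P1 replicate 2, and 2 without P1 replicate 3, P8 replicate 3, P30 replicate 2 or P30 replicate 3. The count of 1 member past 2-fold became 0 without E15.5 replicate 2, 2 without E15.5 replicate 3 and 3 without P1 replicate 1.

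From P1 to P8, 7 members fell and none rose at an adjusted p under 0.05, where 4.56% of all genes fell and 6.59% rose, and 1 fell at least 2-fold, where 3.15% of all genes did. At an unadjusted p under 0.05, 40 members were lower and none was higher, and edgeR and DESeq2 called 3 and 7. *Rps26* was at 156, 102 and 78.3 CPM at P1 and at 65.4, 42.6 and 50.2 CPM at P8 on the TMM scale, a fitted change of -1.07 ± 0.26 (limma-voom, adjusted p = 0.012). The others were *Rps12* (-0.89), *Rps18* (-0.85), *Rps27* (-0.73), *Rpl21* (-0.67), *Rplp2* (-0.65) and *Rpl10* (-0.62). The groups did not overlap, with P8 lower, in 31 members (35.2%), against 15.6% of all genes. Single libraries decided the number of calls, which was 0 without P8 replicate 2, 1 without P1 replicate 1, 4 without P8 replicate 3, P30 replicate 2 or P30 replicate 3, and 15 without E15.5 replicate 2. The 2-fold call of *Rps26* was lost without P1 replicate 1 or P8 replicate 2, and 2 members passed 2-fold without P1 replicate 2 or P1 replicate 3 and 3 without P8 replicate 1. Myelin markers were highest in the P8 SGN libraries, at 816.8 to 1500 TPM against 73.4 to 209.8 TPM at P1, and their part in these changes was not tested.

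No member passed the test from P8 to P14 or from P14 to P30 (limma-voom), where 0.801% and 0.086% of all genes did. At an unadjusted p under 0.05, 3 members were lower from P8 to P14 and 2 from P14 to P30, and none was higher. edgeR called none at either step, and DESeq2 called 1 from P8 to P14 and none from P14 to P30. The lowest p from P8 to P14 belonged to *Rpl15*, at -0.58 ± 0.15 (limma-voom, adjusted p = 0.086), with 174, 238 and 220.5 CPM at P8 and 133, 144 and 141 CPM at P14.

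**Figure D4:**
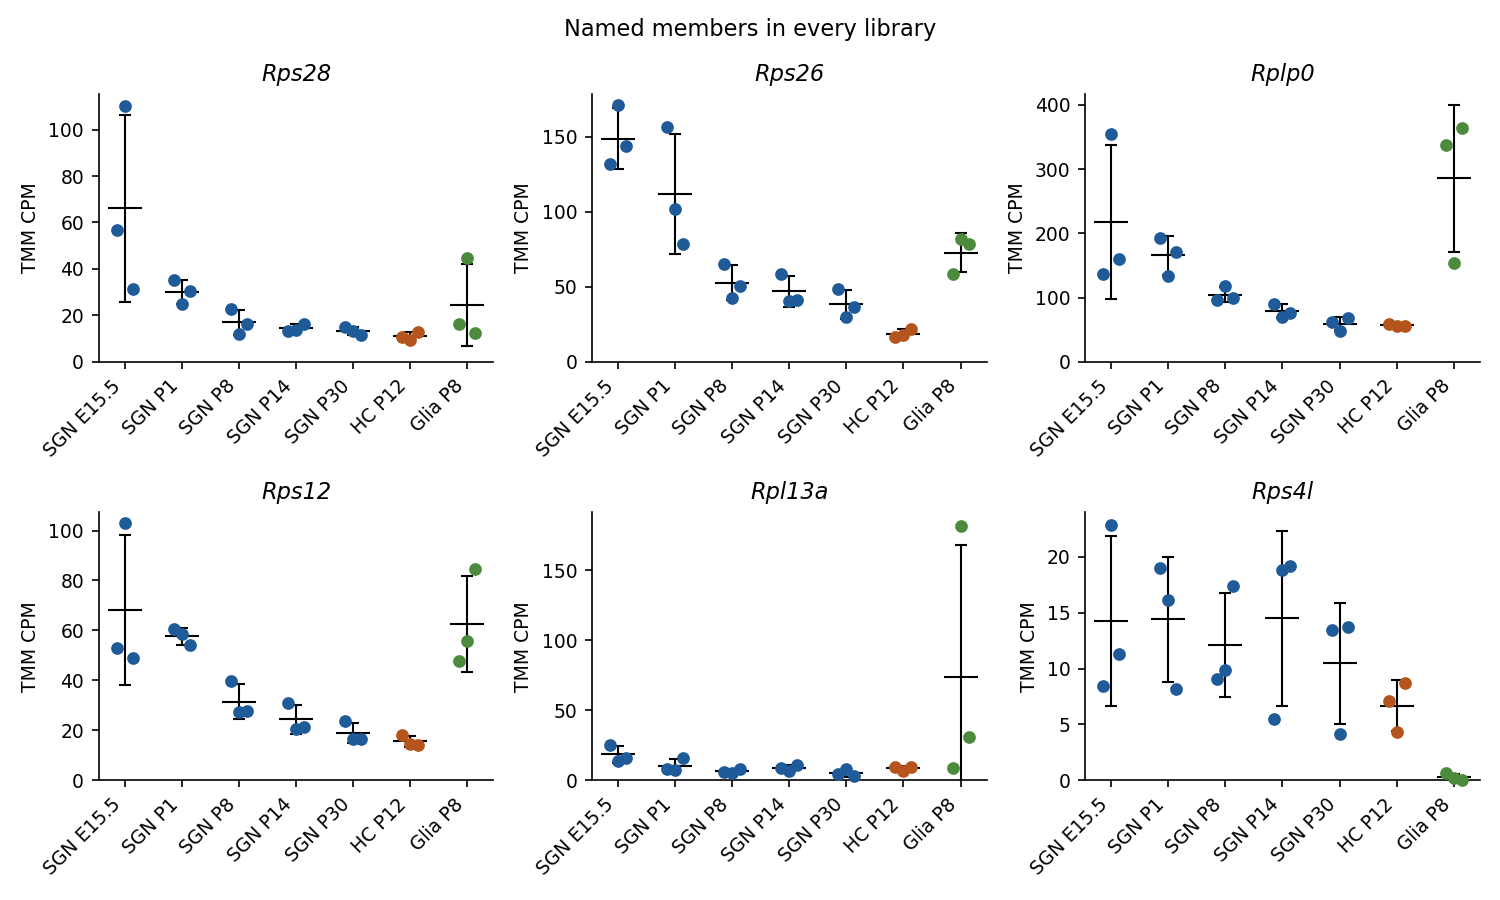
TMM-scaled CPM of 6 members in every library. Points are libraries and black bars are the mean ± SD of 3 libraries, cut at 0, with SGNs in blue, HCs in orange and glial cells in green. The first 5 panels show the members with the lowest fitted change from E15.5 to P30, and *Rps4l* is at 0 to 0.620 CPM in glial cells.

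Paralogs can take the place of a core protein in the ribosome or act outside it. None of the 5 paralogs tested passed from E15.5 to P30, and their median log2 fold change was -0.40. *Rpl7l1*, a relative of *Rpl7* known from ribosome assembly, was the member with a positive fitted change, 0.98 ± 0.43 (limma-voom, adjusted p = 0.076), with 6.75, 9.52 and 4.36 CPM at E15.5 and 12.9, 14.4 and 12.6 CPM at P30 on the TMM scale. Its groups did not overlap, which was so with P30 higher in 26.3% of all genes. *Rpl7* was at 66.2, 82.8 and 117 CPM at E15.5 and at 44.7, 33.5 and 43.6 CPM at P30, a fall of 1.13 ± 0.25 on the log2 scale. *Rpl7l1* therefore held 7.94% ± 3.71 (SD, n = 3) of the summed TPM of the pair at E15.5. The later means were 11.1% ± 1.16 for P1, 16.1% ± 1.07 for P8, 25.4% ± 6.59 for P14 and 25.6% ± 4.45 for P30. The E15.5 libraries spanned 3.70% to 10.6% and the P30 libraries 23.0% to 30.7%, while P14 and P30 overlapped.

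In 3 other pairs the E15.5 and P30 libraries overlapped. *Rpl22l1*, the relative of the RNA-binding protein gene *Rpl22*, held 14.3% ± 5.59 of its pair at E15.5 and 18.5% ± 3.36 at P30. *Rps27l*, a p53 target, held 10.8% ± 4.73 and 14.7% ± 4.53, and *Rps4l* held 10.2% ± 2.29 and 14.02% ± 4.998 of the pair with *Rps4x*. *Rpl36al* held 6.17% ± 0.498 of the pair with *Rpl36a* at E15.5 and 8.92% ± 1.49 at P30, and these libraries did not overlap (5.78% to 6.73% and 7.51% to 10.5%). The paralogs of germ cells and striated muscle were near or at 0: *Rpl10l* had no count in any library, *Rpl39l* had 32 counts in 1 E15.5 library and none elsewhere, and *Rpl3l* had at most 23 counts in a library. A library's limit of 3 counts corresponds to 0.0805 to 0.289 CPM.

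**Figure D5:**
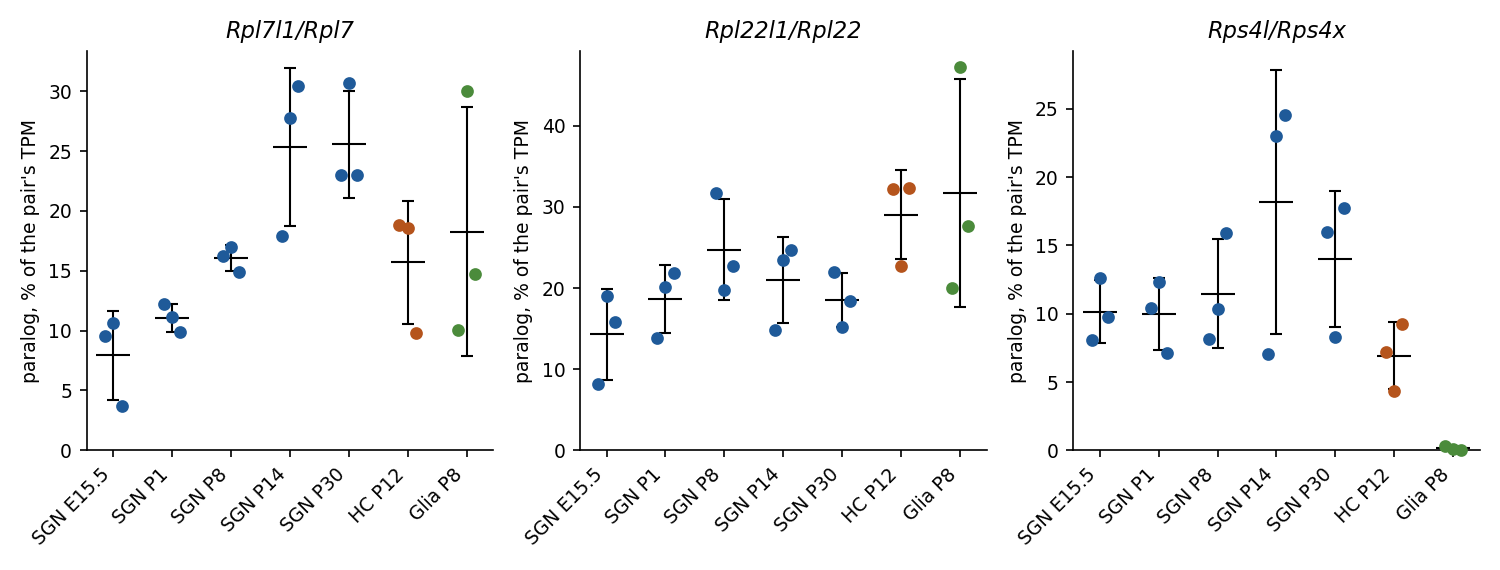
Share of the paralog in the summed TPM of a paralog pair, by library, for 3 pairs. Points are libraries and black bars are the mean ± SD of 3 libraries, cut at 0, in the colors of the other plots. *Rpl7l1* has a mean share of 7.94% at E15.5 and of 25.6% at P30, and *Rps4l* is at 0.136% in glial cells.

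Among the copies, *Rps3a2*, a retrogene of *Rps3a1*, shared 90.2% of its words with other genes. It had a change of -1.09 ± 0.37 and was called. Reads of such copies may not be told apart, and their placing was not tested. *Rps12l1* had no count in any library, and *Rpl32l* had at most 13 counts. *Rps19bp1* was at 72.8, 17.4 and 9.98 CPM at E15.5 and at 7.03, 8.21 and 8.48 CPM at P30, and did not pass (-1.48 ± 0.60).

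Comparison with HCs depended on how libraries were scaled. Against the mean of the 5 SGN ages, 46 of 88 members were higher in SGNs and none lower at an adjusted p under 0.05 (limma-voom over 17531 genes), where 24.6% of all genes were higher and 28.2% lower. None passed the 4-fold rule, which 10.5% of all genes passed as higher and 16.2% as lower, and edgeR and DESeq2 also called none there, while 52 members were higher at an unadjusted p under 0.05. Without HC replicate 3, 1 member passed that rule. The median log2 difference was 0.71 against 0.02 for all genes. With scaling by library size only, the median of all genes moved to -0.53, and 12 members were higher and 9 lower. P14 is the SGN age nearest to the P12 HCs, and against P14 alone 11 members were higher, where 22.1% of all genes were, with a median of 0.40. In TMM-scaled share the HCs had the lowest mean, 0.476% ± 0.0187 (SD, n = 3), though their libraries overlapped those of P30 SGNs, whereas in share of counts they were at 0.657% ± 0.0314, above every P14 and P30 SGN library and overlapping those of P8, and in share of TPM at 1.11% ± 0.0497. *Rps26* had the largest difference, 1.87 ± 0.33 (limma-voom, adjusted p = 6.9e-05), with 16.5, 18.0 and 21.9 CPM in HCs. *Rpl6*, a large-subunit protein, had 1.75 ± 0.29, with 47.5, 37.7 and 45.7 CPM in HCs and at least 95.8 CPM in each SGN library on the TMM scale. Both were called under every one of 10 other settings, library size only included. *Rpl29* (1.42) was also called under all 10. *Rpl6l* (1.45), annotated as a processed pseudogene with 76.4% of its words shared with other genes, lost its call with library size only, with RLE size factors and without HC replicate 2 or HC replicate 3. Against P14 the largest differences among members past an adjusted p of 0.05 were those of *Rpl6* (1.56), *Rps26* (1.31), *Rpsa* (1.20), *Rpl11* (1.13) and *Rps15a* (1.08).

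Glial cells had a higher summed share of ribosomal protein counts than SGNs of the same age. At P8 the summed share of counts was 1.00%, 1.02% and 1.17% in glia and 0.689%, 0.567% and 0.583% in SGNs, and the cell types did not overlap. In share of TPM, glia were at 0.764% ± 0.0488 (SD, n = 3) and P8 SGNs at 0.617% ± 0.219, which overlapped. Of the 88 members, 35 were lower in P8 SGNs and 1 was higher at an adjusted p under 0.05, where 18.5% of all genes were lower and 24.5% higher, and the median log2 difference was -0.59 against 0.22 for all genes. Without P8 SGN replicate 2, 20 members passed in place of 36. Markers of dividing cells (*Mki67*, *Top2a*, *Ccnb1*, *Cdk1* and *Pcna*, none at 0) summed to 94.4 to 260.8 TPM in glia and to 10.1 to 27.8 TPM in P8 SGNs, and their part in the difference was not tested. Against the mean of all SGN ages, 36 members were lower and 1 was higher, where 22.8% of all genes were lower and 26.3% higher.

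*Rps19*, which is needed to mature small-subunit RNA, was at 110.5, 84.3 and 113 CPM in glia and at 31.8, 31.0 and 33.5 CPM in P8 SGNs on the TMM scale, a difference of -1.68 ± 0.29 (limma-voom, adjusted p = 0.00011). *Rplp0* was at 338, 154 and 364 CPM in glia and at 95.9, 118 and 99.7 CPM in P8 SGNs (-1.39 ± 0.31), and *Rps27* and the copy *Rps3a2* had differences of -1.23 ± 0.24 and -1.24 ± 0.40. The *Rps27* call was kept under every setting and left-out library run, whereas that of *Rps3a2* was lost with sample quality weights, with only the libraries compared, without P8 SGN replicate 2 and without glial replicate 3. *Rpl13a* had -2.26 ± 0.80 with 8.93, 181 and 30.8 CPM in glia, and its call was lost without the second glial library or without any 1 of the P8 SGN libraries. *Rpl35a* and *Rpl34* differed by -1.17 ± 0.23 and -1.09 ± 0.32 against the mean of all SGN ages.

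*Rps4l*, a retrocopy of *Rps4x* annotated as a transcribed processed pseudogene (chromosome 6, 148354656 to 148355598, plus strand), went the other way and was the 1 member past the 4-fold rule, which 13.4% of all genes passed as higher in P8 SGNs and 14.3% as higher in the mean of all SGN ages. Without glial replicate 1, 2 members passed that rule. With sample quality weights no member passed it in either comparison, so the call of *Rps4l* was lost there. *Rps4l* had 12, 2 and 0 counts in the glial libraries, 295, 297 and 432 in the P8 SGN libraries and 120, 100 and 217 in the HC libraries. Summed over libraries and set per total count, *Rps4l* was 31.7-fold higher in P8 SGNs than in glia, with a 95% exact interval of 18.8 to 58.3 that covers counting error only. Such an interval takes each count as independent, which was not tested. Glial replicate 1 held 12 of the 14 glial counts, and without it the ratio was 118 (32.5 to 974), a value chosen for computing after seeing the data. Without glial replicate 2 or 3 it was 26.5 and 23.9. Its fitted log2 difference of 5.86 ± 1.07 (limma-voom, adjusted p = 0.00017) depends on how counts near 0 are handled. In the same glial libraries *Rps4x* was at 343, 309 and 310.2 CPM, above the 177, 147 and 159.7 CPM of the P8 SGNs. *Rps4l* shared 14.9% of its 50-base words with 1 other gene, and its share of the pair was 0.136% ± 0.159 in glia, 6.94% ± 2.45 in HCs and 11.5% ± 3.98 in P8 SGNs.

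The same tests were read for other genes of ribosome supply from E15.5 to P30, where 22.1% of all genes rose and 19.3% fell at an adjusted p under 0.05. Of 76 genes for mitochondrial ribosomal proteins, which build the separate ribosome of mitochondria, 27 rose, 1 fell and the others did not pass, with a median of 0.75. *Mrpl41* was at 6.15, 4.76 and 8.72 CPM at E15.5 and at 38.0, 32.5 and 32.9 CPM at P30 (2.42 ± 0.46), and *Mrps10* differed by 2.32 ± 0.61. *Mrpl32* was the one that fell, by 1.25 ± 0.34 on the log2 scale. Of the cytosolic ribosome genes with other names, *Rack1*, a signaling scaffold on the small subunit, fell by 1.14 ± 0.24, whereas *Fau*, which encodes a ribosomal protein fused to a ubiquitin-like protein, did not pass, at 0.03 ± 0.33.

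Among 18 elongation factors and other mRNAs of the TOP class, 5 fell and 1 rose from E15.5 to P30, beside 19.3% and 22.1% of all genes. The factor that brings aminoacyl-tRNA to the ribosome is encoded by *Eef1a1* in most tissues and by *Eef1a2* in mature neurons and muscle. *Eef1a1* was at 1394, 1485 and 1367 CPM at E15.5 and at 438, 287 and 357 CPM at P30, a change of -2.00 ± 0.21 (limma-voom, adjusted p = 1.4e-06). *Eef1a2* was at 57.5, 112 and 60.4 CPM at E15.5 and at 383, 277 and 391 CPM at P30, a change of 2.201 ± 0.27. *Eef2*, the translocation factor, did not pass, with 1184, 1165 and 1157 CPM at E15.5 and 951, 955 and 1036 CPM at P30. The poly(A)-binding protein gene *Pabpc1* (-1.19), *Eif3l* (-0.72), *Tpt1* (-0.50) and *Eif4b* (-0.36) also fell.

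Of 39 ribosome assembly genes, 8 fell and 5 rose over the same span, and their median was -0.03. The share that fell was near the 19.3% of all genes, and the share that rose was below the 22.1% of all genes. *Utp18* (-1.97), *Rrp1b* (-1.57) and *Bop1* (-1.43) had the lowest changes, and *Pno1* (2.06), *Nop10* (1.38) and *Sbds* (1.33) the highest. Of 19 genes for RNA polymerase I transcription, which makes ribosomal RNA, *Polr1b* (-1.67) and *Taf1d* (-1.20) fell and none rose, both shares below those of all genes. Of 16 growth regulators, 5 fell and 3 rose, again beside 19.3% and 22.1% of all genes. All 3 *Myc* family genes fell: *Mycl* by 3.41 ± 0.61, *Mycn* by 2.52 ± 0.44 and *Myc* by 2.00 ± 0.53 on the log2 scale. *Mycn* was at 19.9, 25.5 and 21.1 CPM at E15.5 and at 3.06, 4.27 and 2.38 CPM at P1, a step of -2.81 ± 0.43 (limma-voom, adjusted p = 0.00097), and *Mycl* fell from P1 to P8 by 1.76 ± 0.38, with 23.7, 26.2 and 18.2 CPM at P1 and 4.30, 8.48 and 8.64 CPM at P8. *Eif4ebp2*, a repressor of cap-dependent translation, fell by 2.02 ± 0.37 and the S6 kinase gene *Rps6kb2* by 1.42 ± 0.26. *Rheb* (0.98), *Mtor* (0.75) and *Larp1* (0.45 ± 0.16) rose.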

How the data were processed

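RNA was amplified with the Ovation RNA-Seq System V2 kit and sequenced in 21 libraries, with paired ends per the study. Per the labels and the study's methods, the authors mapped reads to mm10 with STAR 2.4.0i, counted them on GENCODE vM15 genes with featureCounts, and deposited raw counts with a length per gene. The strand, pair and multimapping settings of the counting are not given in the sources used here. A median of 67.9% of small counts per library were even numbers, and the reason was not tested.

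Symbols and positions came from GENCODE M21 (GRCm38). TPM was the count over the deposited length, scaled per library, and CPM was the count over the library total times the TMM factor over all 21 libraries. Counts were fitted with TMM (edgeR 4.0.16) and voom (limma 3.58.1, R 4.3.3), two-sided, with Benjamini-Hochberg adjustment over all genes tested. A gene was kept where every replicate of 1 or more groups had a CPM over 1. Ages were compared in the 15 SGN libraries (15113 genes, 2-fold, adjusted p 0.05) and cell types in all 21 libraries (17531 genes, 4-fold, adjusted p 0.01), each also read at adjusted p 0.05 with no limit on size. Intervals and the limit of 3 counts cover counting error only. They take each count as independent and could be too narrow if both reads of a pair were counted, which was not tested.

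Alternatives were scaling by library size only, RLE size factors (edgeR), no mitochondrial genes, edgeR's quasi-likelihood test, DESeq2 1.42.0 and sample quality weights. Further ones were other filters, a replicate block, a fit of only the libraries compared, and leaving out each library. P14 SGNs against HCs was added after seeing the data. Shared words of 50 bases were counted over GENCODE M21 transcripts. The fitting steps were tested on simulated data. Tables were handled with Python 3.11.15, pandas 2.3.3 and scipy 1.17.1, and plots drawn with matplotlib 3.10.9.

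Named members are the 10 most abundant, both genes of each paralog pair, members at 0 or matched without being ribosomal proteins, and those past the thresholds. The 5 largest changes each way per comparison, among members with an adjusted p under 0.05, are also named. *Rpl7a*, *Rpl5*, *Rpl9*, *Rps6*, *Rps10* and *Rpl24*, and the list genes *Tpt1*, *Eif3l*, *Eif4b*, *Myc* and *Rps6kb2*, were named after their values were seen. Members and lists were chosen with earlier results of these data known. Some genes that these rules name are not reported here. Protein sequences were not used here.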

Additional observations from a re-analysis of the deposited data

How the results depend on the processing

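Direction and count held for the fall from E15.5 to P30: 33 to 49 members fell at least 2-fold under the other settings, except with scaling by library size only, which gave 72. From E15.5 to P1, 2-fold calls numbered 2 with library size only and 3 with DESeq2, and adjusted p calls 2 with edgeR, 1 with sample weights and 1 with only the libraries compared. From P1 to P8, library size only gave 5 and 36, and adjusted p calls were 3 with edgeR, 17 with sample weights, 17 with a CPM over 10 and 4 with no filter. From P8 to P14, DESeq2 and sample weights each gave 1. Against HCs, library size only gave 21 and P14 alone, chosen after seeing the data, 11. Against glia, 4-fold calls were 2 with edgeR, DESeq2 and the replicate block and 0 with sample weights and a CPM over 10, and adjusted p calls were 18 with sample weights and 23 with no filter. For P8 against glia they were 2 with edgeR and DESeq2, 0 with sample weights and a CPM over 10, and 21, 21 and 12 with sample weights, no filter and only the libraries compared. The cause was not tested.

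As log2 ratios of summed share, E15.5 over P30 was 1.41 in counts, 1.10 in TPM and 0.91 after TMM. HC over P14 was 0.38 in counts, 0.15 without mitochondrial genes, 0.94 in TPM and -0.34 after TMM, which reverses it. Glia over P8 was 0.80 in counts and 0.37 in TPM.

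Leaving out each library in turn gave 2-fold calls of 0 to 3 from E15.5 to P1, 0 to 3 from P1 to P8, 0 at both later steps, and 30 to 51 from E15.5 to P30, with adjusted p calls of 1 to 7, 0 to 15, 0 and 49 to 67. Calls at any age numbered 51 to 65. Calls numbered 0 to 1 and 33 to 50 against HCs, 1 to 2 and 26 to 41 against glia, and 1 to 2 and 20 to 38 for P8 against glia. The 3 share ratios ranged over 1.31 to 1.497, 0.27 to 0.46 and 0.72 to 0.88. The change in log2 paralog ratio ranged over 0.10 to 0.80 for *Rpl22l1*, 0.28 to 0.94 for *Rps27l*, 0.43 to 0.69 for *Rpl36al*, 1.61 to 2.42 for *Rpl7l1* and 0.24 to 0.87 for *Rps4l*.

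The labels give replicate numbers no shared litter or day. Deviations of same-numbered libraries correlated at -0.07, -0.14 and 0.01 between E15.5 and P30, at 0.36, 0.06 and 0.16 between P1 and P8, and at 0.37, 0.22 and 0.08 between P14 and P30. In no comparison of ages made here did all 3 pass 0.1, though all 3 did between P8 and P30 (0.38, 0.17 and 0.15), which were not compared, so the numbers were not taken to pair the samples. The replicate 1 libraries alone correlated at 0.25 (P1 and P14) to 0.38 (P8 and P30) in every pair of postnatal ages. Connective tissue markers (*Col1a1*, *Col1a2*, *Col3a1*, *Dcn* and *Lum*) were highest in replicate 1 at each SGN age in summed TPM. On the TMM scale, E15.5 replicate 2 (178 CPM) was above E15.5 replicate 1 (151 CPM). The markers summed to 140.8, 7.32 and 10.2 TPM at P1 and to 151, 32.6 and 10.1 TPM at P8, and their part in the calls was not tested. With the replicate block, 39 and 68 members fell from E15.5 to P30, 9 from P1 to P8, and 44 were higher than in HCs. Members under 3 counts in a library could not be told from 0.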
